A study of Mus musculus with 17 samples.

Results

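Liver messenger RNA of mice labelled Gata4LKO was compared with that of control mice after gavage with vehicle alone. The comparison takes the 8 vehicle libraries of 17 in the study, 4 titled as control with vehicle (replicates 1 to 4) and 4 titled as Gata4LKO with vehicle (replicates 5 to 8), and it runs across all genes. All mice were male, of mixed strain, 11 weeks old and homozygous for a floxed Gata4 allele, in which the target of Cre recombinase is flanked by loxP sites. At 10 weeks of age the Gata4LKO mice had received AAV8-Tbg-Cre, an adeno-associated virus that carries Cre behind the hepatocyte promoter Tbg, and the controls an empty AAV8. Both groups were gavaged with dimethylsulfoxide in canola oil 1 week later, the first dose 17 h and the second 8 h ahead of killing, which followed a fast of 4 h. The other 9 libraries came from the same 2 genotypes given GW3965 at 40 mg/kg, a compound that activates the sterol-sensing nuclear receptors LXR (control, n = 4, and Gata4LKO, n = 5). They serve here as a second set of libraries in which each gene of the vehicle comparison was read again. The Cre cargo and the loss of Gata4 come together in this design and cannot be told apart, and liver cells other than hepatocytes are not targeted by the Tbg promoter.

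GATA4 is a zinc-finger transcription factor that binds DNA at sites with the core letters GATA and shares its targets in part with its homologue GATA6. In the liver it is made in hepatocytes and also in sinusoidal endothelial and stellate cells. Hepatocytes take up and secrete bile acids, lipids and hormones through large families of membrane carriers, conjugating enzymes and lipoproteins, and macrophages resident in the sinusoids (Kupffer cells) contribute their own transcripts to a whole-liver sample.

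The values are the authors' normalized counts per gene, that is, gene reads after division by a size factor for the library. Differences are Gata4LKO minus control in log2(normalized count + 1), with the SE (±) of a limma fit over all 17 libraries, and a gene is called at a Benjamini-Hochberg adjusted p below 0.05. The scale understates differences of genes with low counts. The vehicle libraries held 14.9 to 22.05 M reads in genes. Mitochondrially encoded genes made up 19.0% of control replicate 1 and 6.26% to 7.26% of the other 7. Gata4LKO replicate 6 had 15515 genes above 0, against 17780 to 19729 in the other 7, and lay at 78.0 on the first principal component (34.02% of the variance), where the other 7 lay between -17.8 and -0.71. Control replicate 1 lay apart on the second (20.6% of the variance). Whether every library is a separate mouse is not said in the labels, and the p-values describe the spread between libraries.

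Another split of the libraries coincides with genotype in this comparison. Gm5345, a processed pseudogene (chromosome 8, 40853828 to 40855027, minus strand, mm10), was at 30.3, 49.0, 53.9 and 66.0 normalized counts in control and at 0.667, 0, 1.64 and 0.876 in Gata4LKO vehicle libraries. Gm16348, a transcript on the same chromosome (41218139 to 41220894, plus strand), was at 98.5, 64.6, 38.8 and 151 in control and at 0.667, 0, 0 and 0 in Gata4LKO. Neither passed the test (limma adjusted p = 0.0646 for Gm5345 and 0.100 for Gm16348), and a pseudogene can share reads with the gene it was copied from. With GW3965 the same pair was near 0 in control replicates 9 and 10, with Gm5345 at 0.834 and 1.00, and present in control replicates 12 and 13 (35.9 and 43.8) and in all 5 Gata4LKO libraries (23.1 to 101). The labels give the strain only as mixed. Whether strain background or an exchange of animals or libraries between groups goes with this split was not tested, and an exchange would change what the differences between the labelled genotypes stand for, with vehicle and with GW3965. With vehicle, this split and genotype cannot be told apart, and values from the GW3965 libraries are given beside the main results for that reason.

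Gata4 itself, the targeted gene (chromosome 14, 63198922 to 63271692, minus strand), was not lower in the libraries labelled Gata4LKO. It was at 128, 169, 183 and 132 normalized counts in control and at 181, 137, 234 and 223 in Gata4LKO libraries, and the groups overlapped. The log2 difference was 0.32 ± 0.21 (limma adjusted p = 0.910), a fold of 1.25 with a 95% interval of 0.928 to 1.69. The labels do not name the floxed exons, and the count covers the whole gene, so reads of exons that Cre leaves in place are part of it. Reads from sinusoidal endothelial and stellate cells, which the Tbg promoter does not target, are part of it too. The check is therefore incomplete. Gata6, the homologue, was at 254, 121, 140 and 162 in control and at 120, 137, 98.5 and 85.9 in Gata4LKO (-0.58 ± 0.24, limma adjusted p = 0.753), again with overlapping groups. Of 12 GATA factors and cofactors listed, 8 reached the expression minimum of 10 normalized counts in 4 or more libraries. Of these 0 had groups that did not overlap, against 6.58% of all genes, and Gata3, Gata5, Nkx2-5 and Tbx5 were not tested.

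The treatment label contradicts the title in 8 libraries: it reads GW3965 in all 4 titled Gata4LKO with vehicle and vehicle in all 4 titled control with GW3965. The titles set the groups here, also those of the GW3965 comparison, and the LXR target Scd2, a fatty acid desaturase, was read as a check. It was at 56.9 to 91.2 in control vehicle and 71.0 to 89.5 in Gata4LKO vehicle libraries, and at 311 to 597 and 360 to 528 in the control and Gata4LKO libraries titled GW3965. The 2 vehicle groups thus overlapped each other and lay below every library titled GW3965. Of 19 LXR targets and sterol efflux genes tested, 9 had positive log2 differences between the vehicle genotypes (median -0.01). Without overlap, 1 member, Rnf145, was higher and 2 were lower, where 3.00% and 3.58% of all genes were. Abcg1, a sterol transporter, was at 78.3, 74.6, 44.5 and 62.1 in control and at 105, 143, 94.4 and 77.1 in Gata4LKO libraries, and its groups overlapped.

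**Figure D1:**
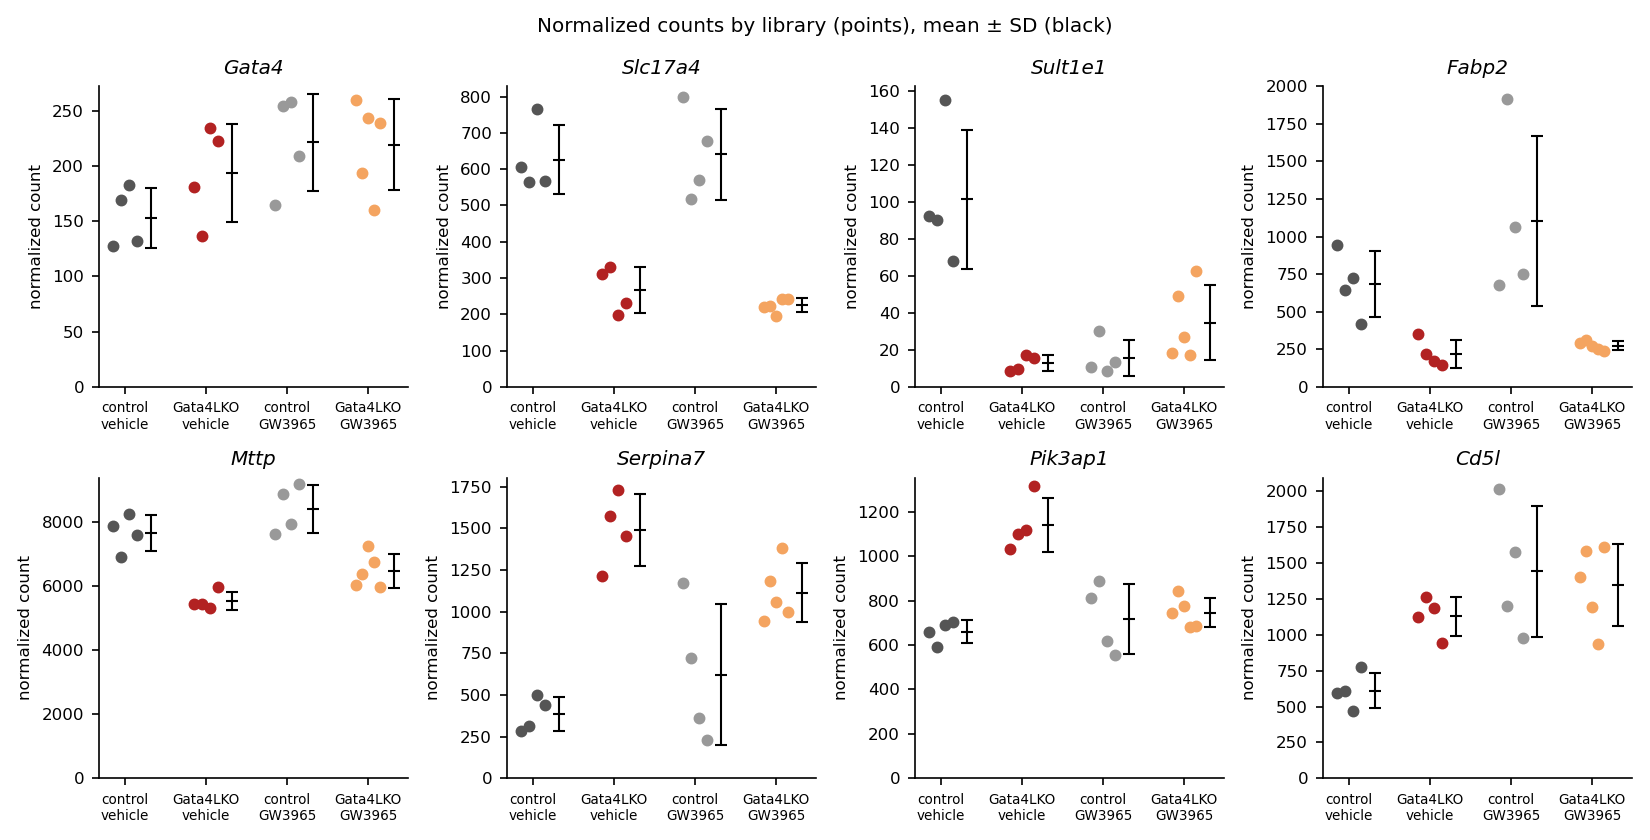
Normalized counts (linear axes from 0) of 8 genes in each library of the 4 groups, as points, with the mean and SD of each group in black. Gata4 overlaps between genotypes, Slc17a4, Fabp2 and Mttp are lower in Gata4LKO in both treatments, and Sult1e1, Pik3ap1 and Cd5l separate the genotypes with vehicle but overlap with GW3965.

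Across the 13379 genes tested, 2 were called between the vehicle groups, 0.0149% of all, and both were lower in Gata4LKO. They were Slc17a4, which encodes an organic anion carrier of the phosphate transporter family, and Sult1e1, the oestrogen sulfotransferase, which inactivates oestrogens by adding a sulfate group. Slc17a4 (chromosome 13, 23895890 to 23915009, minus strand) was at 605, 566, 765 and 569 normalized counts in control and at 311, 331, 197 and 230 in Gata4LKO libraries. The groups did not overlap. Slc17a4 fell by 1.25 on the log2 scale, ± 0.17 (limma adjusted p = 0.0133), to a fold of 0.422 of control with a 95% interval of 0.329 to 0.542.

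Sult1e1 (chromosome 5, 87575969 to 87591594, minus strand) was at 92.2, 90.2, 155 and 67.9 in control and at 8.68, 9.47, 17.2 and 15.8 in Gata4LKO libraries. Its highest Gata4LKO value lay well below its lowest control value, with a log2 difference of -2.88 ± 0.44 (limma adjusted p = 0.0250) and a fold of 0.136 (95% interval 0.0716 to 0.257). Leaving out single vehicle libraries gave Slc17a4 adjusted p-values of 0.00901 to 0.102, called in 5 of 8 fits and lost without replicate 1 or 3 of control or replicate 7 of Gata4LKO. Sult1e1 had 0.0450 to 0.147 and was called in 2 of 8 fits. Without both libraries that stood apart (control replicate 1 and Gata4LKO replicate 6) the adjusted p was 0.0372 for Slc17a4 and 0.304 for Sult1e1.

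With GW3965 the called pair parted. Slc17a4 was at 799, 517, 570 and 679 in control and at 220, 222, 196, 243 and 242 in Gata4LKO libraries, again without overlap (-1.49 ± 0.16, limma adjusted p = 4.70e-04). Control replicates 12 and 13, which hold Gm5345 as the Gata4LKO GW3965 libraries do, were the 570 and 679 of these. Sult1e1 with GW3965 was at 10.8, 30, 8.74 and 13.3 in control and at 18.1, 49.0, 26.8, 17.3 and 62.5 in Gata4LKO, and the groups overlapped. All 4 control GW3965 libraries were below the lowest control vehicle library for Sult1e1. The difference between the genotype effects in the 2 treatments, 3.95 on the log2 scale, passed for Sult1e1 (limma interaction adjusted p = 0.0374) and not for Slc17a4 (0.997); 2 genes passed this interaction, 0.0149% of those tested. Sult1e1 lost this interaction call in each fit that left out 1 vehicle library, and edgeR called 0 genes (621 at an unadjusted p below 0.05).

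The promoters of Sult1e1 and of Serpina7, the gene with the smallest p among those higher in Gata4LKO, are shown with the direction of their values. They were searched for GATAA, which extends the core letters GATA by a base. Each is 300 bases, 250 before to 50 after the start site, from RefSeq (GRCm38.p6), printed 5′ to 3′ on the gene's strand, with any GATAA or its reverse complement TTATC in capitals. Sult1e1 lies at chr5:87591562-87591861 (minus strand) and Serpina7, the first of its 2 start sites, at chrX:139085187-139085486 (minus strand).
Sult1e1: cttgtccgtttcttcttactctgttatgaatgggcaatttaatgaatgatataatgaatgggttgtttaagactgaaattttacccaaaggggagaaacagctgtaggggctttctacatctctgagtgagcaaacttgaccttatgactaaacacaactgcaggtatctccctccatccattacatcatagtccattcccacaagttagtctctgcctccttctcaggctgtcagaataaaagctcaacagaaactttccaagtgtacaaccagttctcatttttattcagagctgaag
Serpina7: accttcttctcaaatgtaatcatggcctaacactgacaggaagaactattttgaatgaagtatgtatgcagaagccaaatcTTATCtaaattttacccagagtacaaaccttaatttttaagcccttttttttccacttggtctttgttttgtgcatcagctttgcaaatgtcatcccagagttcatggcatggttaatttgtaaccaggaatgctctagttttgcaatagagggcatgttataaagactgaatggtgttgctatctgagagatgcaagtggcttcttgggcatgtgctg
The Sult1e1 window holds no GATAA on either strand, and the Serpina7 window holds TTATC once, at -169 from the start site, within the longer AGATAA read on the other strand. The shorter core GATA was not marked. Sult1e1 holds it on both strands (GATA and its reverse complement TATC), and Serpina7 also holds TATC outside the marked site. Over all 32851 RefSeq promoters of this length, 25.41% held GATAA and 11.18% held AGATAA, which contains it. Of the 17 genes named below or above as lower, 9 had a promoter in the table and 1 of them, Lect2, held GATAA, and 0 held AGATAA. Of the 15 named as higher, 12 had a promoter and 5 held GATAA (Serpina7, Cyth4, Syne3, Cd5l and Themis2), 3 of them AGATAA. Slc17a4 was not matched to the promoter table. A match of letters is a description of these windows.

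The families of the called pair were read next. Of 16 sulfotransferases and sulfate donor enzymes listed, 9 were tested, and 4 of these had positive differences. In Gata4LKO 3 had lower values without overlap, where 3.58% of all genes did (6.58% in either direction). Sult1e1, whose call led to this family, is 1 of the 3, so the count is partly fixed by that choice. Sult1d1, which sulfates catecholamines and other phenols, was at 7851, 8982, 9517 and 9648 in control and at 5388, 5479, 5286 and 7812 in Gata4LKO (-0.60 ± 0.17, limma adjusted p = 0.390). Sult1b1, which sulfates thyroid hormones, was at 963, 1032, 1156 and 1094 and at 727, 807, 906 and 855 (-0.37 ± 0.17, limma adjusted p = 0.812). Neither passed, and with GW3965 both overlapped between genotypes. The family's median, with Sult1e1 included, was -0.35, against -0.01 over all genes.

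Of 22 organic anion and solute carriers tested, 10 had positive differences (median -0.01). Slc17a4 and its relative Slc17a1 were lower without overlap, where 3.58% of all genes were, and Slc22a30, an organic anion transporter family member, was higher (3.00% of all genes). Slc17a4, whose call led to this family, is part of that count by choice. Slc17a1, a urate and phosphate transporter encoded near Slc17a4 on the same chromosome, was at 240, 290, 249 and 241 in control and at 158, 145, 170 and 185 in Gata4LKO libraries. Its difference of -0.63 ± 0.24 did not pass (limma adjusted p = 0.632), and with GW3965 it was 0.36. Of 20 genes of 17-beta-hydroxysteroid dehydrogenases and oestrogen handling, 6 had positive differences (median -0.12). In 0 of them the groups did not overlap, against 6.58% of all genes.

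**Figure D2:**
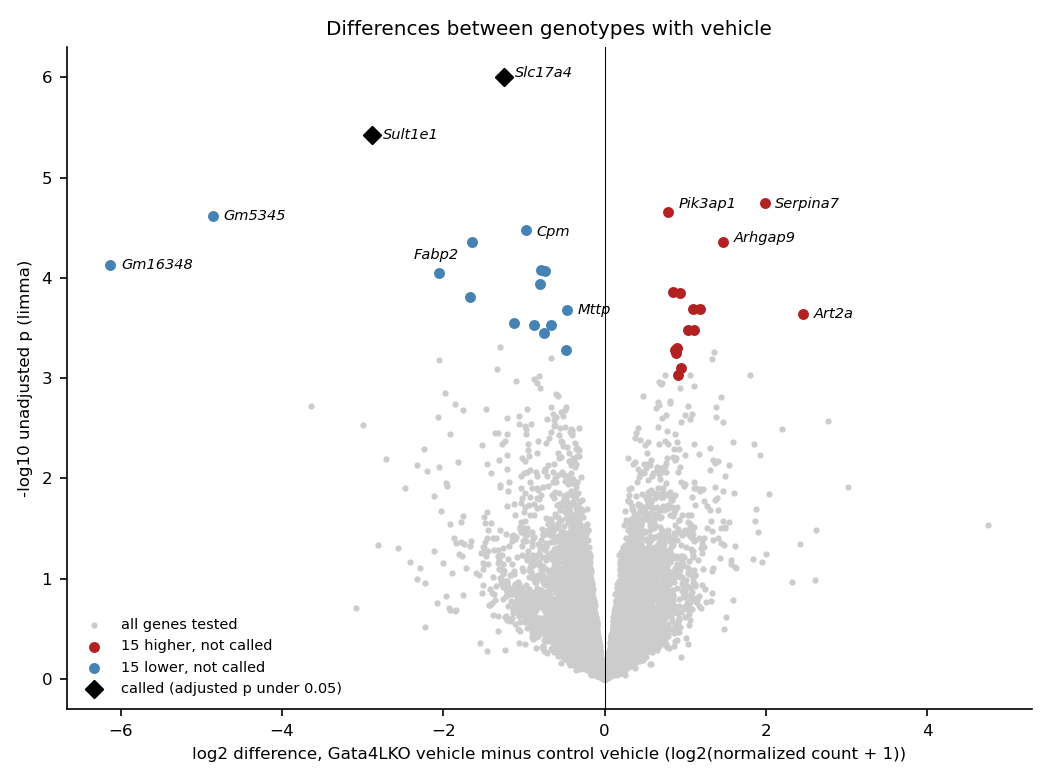
Each of the 13379 genes as a grey point, with the log2 difference (Gata4LKO vehicle minus control vehicle) on the horizontal and -log10 of the unadjusted limma p on the vertical axis. The called genes Slc17a4 and Sult1e1 stand highest as black diamonds; the 15 genes with the smallest p and no overlap that did not pass in each direction are red (higher) and blue (lower).

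Beyond the called pair, 823 genes had an unadjusted p below 0.05 (6.15%), 381 higher (2.85%) and 442 lower (3.30%). In 402 genes all 4 Gata4LKO libraries were above all 4 controls (3.00%) and in 479 all were below (3.58%). The 15 genes with the smallest p among these in each direction are described as values that did not pass. Having no overlap was part of how they were chosen.

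The 15 lower genes had log2 differences from -6.13 to -0.47. Fabp2, the intestinal-type fatty acid-binding protein, was at 946, 646, 723 and 415 in control and at 353, 217, 172 and 143 in Gata4LKO libraries (-1.65 ± 0.31, limma adjusted p = 0.0737). Mttp, the transfer protein that loads lipid onto apolipoprotein B, was at 7865, 6901, 8236 and 7585 and at 5441, 5430, 5305 and 5956 (-0.47 ± 0.10, limma adjusted p = 0.147). The 4 Gata4LKO values of Mttp spanned a narrow range below every control value, so the difference was small in size and large against the spread. Fads1, a desaturase of polyunsaturated fatty acid synthesis, was at 6740, 8526, 7795 and 7491 and at 5390, 5526, 5481 and 5469 (-0.48 ± 0.11, limma adjusted p = 0.221). Gpr155, a lysosomal membrane protein that senses cholesterol, was at 944, 1187, 1038 and 1010 and at 749, 668, 544 and 483 (-0.79 ± 0.16, limma adjusted p = 0.100). Its lowest control library stood above all 4 Gata4LKO libraries.

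Cpm, the membrane peptidase carboxypeptidase M, was at 154, 115, 142 and 134 in control and at 77.4, 61.0, 63.2 and 73.6 in Gata4LKO (-0.97 ± 0.18, limma adjusted p = 0.0737). Dsg1c, a desmosomal cadherin, was at 620, 576, 442 and 554 and at 283, 285, 112 and 93.8 (-1.66 ± 0.35, limma adjusted p = 0.130). Lect2, a protein secreted by hepatocytes, was at 1728, 1634, 1648 and 1436 and at 994, 803, 1012 and 1298 (-0.67 ± 0.15, limma adjusted p = 0.174). In each of these the groups were apart, with Lect2 the closest. Rhobtb1, an atypical small GTPase (-0.74 ± 0.15), Arhgef26, a guanine nucleotide exchange factor (-0.81 ± 0.16), Cpeb2, a regulator of translation (-0.88 ± 0.20), Shld2, a subunit of the shieldin complex of DNA repair (-1.12 ± 0.25), Rad54l2, a helicase-like protein (-0.75 ± 0.17), and the predicted gene Gm37163 (-2.06 ± 0.41) had limma adjusted p-values of 0.100 to 0.181. Gm5345 and Gm16348, given above, complete the 15.

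Among the 15 higher genes, Serpina7 had the smallest p. It encodes thyroxine-binding globulin, the plasma carrier of thyroid hormone, and it is the gene whose promoter the abbreviation Tbg in the viral construct stands for. Serpina7 (chromosome X, 139079257 to 139085236, minus strand) was at 283, 314, 501 and 438 in control and at 1217, 1573, 1730 and 1454 in Gata4LKO libraries. The lowest Gata4LKO library was above 2 times the highest control, and the log2 difference was 1.98 ± 0.34 (limma adjusted p = 0.0646), a fold of 3.96 with a 95% interval of 2.40 to 6.52. With GW3965 control libraries 9, 10, 12 and 13 were at 1172, 723, 365 and 232 and Gata4LKO libraries at 945, 1186, 1058, 1386 and 998. There the control libraries without Gm5345 (replicates 9 and 10) were the 2 higher ones and the groups overlapped.

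Pik3ap1, an adaptor of phosphoinositide 3-kinase signalling known from B cells and macrophages, was at 659, 590, 690 and 704 in control and at 1031, 1102, 1116 and 1316 in Gata4LKO (0.78 ± 0.14, limma adjusted p = 0.0646). Art2a, an ADP-ribosyltransferase known from T cells, was at 6.32, 2.23, 3.78 and 2.91 and at 72.1, 23.1, 27.9 and 7.01 (2.46 ± 0.54, limma adjusted p = 0.153). GENCODE lists Art2a as a polymorphic pseudogene, while the deposited values list it as protein-coding. Art2a had its lowest Gata4LKO value, in replicate 8, close to its highest control value, and without that replicate it was called. Vldlr, the receptor for very-low-density lipoprotein, was at 181, 127, 180 and 236 and at 294, 275, 392 and 383 (0.91 ± 0.23, limma adjusted p = 0.292). Rnf43, a ubiquitin ligase that removes Wnt receptors, was at 202, 208, 310 and 393 and at 402, 514, 607 and 485 (0.89 ± 0.21, limma adjusted p = 0.222). The closest pair of Rnf43 values, one from each genotype, differed by little.

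Arhgap9, a GTPase-activating protein of blood cells, was at 12.6, 15.6, 16.1 and 19.4 in control and at 40.0, 64.2, 43.5 and 38.6 in Gata4LKO (1.47 ± 0.28, limma adjusted p = 0.0737). Cd53, a leukocyte tetraspanin, was at 37.9, 31.2, 40.7 and 46.6 and at 90.1, 90.5, 83.7 and 73.6 (1.10 ± 0.24, limma adjusted p = 0.147). Slc11a1, a metal transporter of phagosomes, was at 39.2, 50.1, 49.2 and 59.2 and at 101, 113, 83.7 and 85.0 (0.94 ± 0.20, limma adjusted p = 0.126). In each the 2 groups lay clearly apart at low counts. Cyth4 (0.85 ± 0.18), Dock10 (1.04 ± 0.23) and Themis2 (0.95 ± 0.24), also signalling proteins of leukocytes, the flagellin receptor Tlr5 (0.87 ± 0.21), the nuclear envelope protein Syne3 (1.19 ± 0.25) and the predicted gene Gm45909 (1.11 ± 0.25) had limma adjusted p-values of 0.126 to 0.280. The macrophage protein Cd5l completes the 15.

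Markers of Kupffer cells and macrophages were mostly higher in the Gata4LKO vehicle group. All 19 markers listed were tested, 18 had positive differences, with a median of 0.53 against -0.01 over all genes, and 48.5% of all genes were positive. In 9 the 4 Gata4LKO libraries were all above the 4 controls, against 3.00% of all genes, and 0 passed the test. Cd5l was at 591, 608, 472 and 774 in control and at 1125, 1260, 1187 and 945 in Gata4LKO (0.90 ± 0.21, limma adjusted p = 0.221). Clec4f, a lectin specific to Kupffer cells, was at 816, 805, 638 and 876 and at 1194, 995, 1128 and 1052 (0.48 ± 0.17, limma adjusted p = 0.526). Adgre1, which encodes the macrophage antigen F4/80, was at 93.5, 114, 89.9 and 140 and at 225, 217, 200 and 184 (0.93 ± 0.31, limma adjusted p = 0.515). The other 6 without overlap were Csf1r, C1qc, Vsig4, Folr2, C1qa and Fcna, and Nr1h3, which hepatocytes also make, was the marker with a negative difference.

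Summed over the 19 markers, the level was 7558 to 9305 normalized counts in control and 10140 to 11560 in Gata4LKO vehicle libraries. More macrophages and more of these RNAs per macrophage cannot be told apart in a whole-liver sample, and the same holds for fewer cells and less RNA per cell. With GW3965 the markers' median difference between genotypes was -0.05 and 0 of 19 were higher without overlap (0.822% of all genes were). Cd5l was then at 978 to 2019 in control and 933 to 1609 in Gata4LKO libraries, levels that reach above those of the vehicle groups in both genotypes. Without control replicate 1 and Gata4LKO replicate 6 the vehicle median was 0.58, with 17 of 19 positive.

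Markers of lymphocytes and antigen presentation had a median of 0.71, with 11 of 15 tested positive and 4 higher without overlap (Cd74, H2-Aa, H2-Eb1 and Cd2), against 3.00% of all genes. Of 25 listed, 10 were below the minimum, among them Cd3d, Cd8a, Cd79a and Ncr1, each at 0 in at least 1 vehicle library. Cd74, the invariant chain that accompanies class II antigen-presenting molecules, was at 557, 688, 435 and 538 in control and at 1290, 1494, 832 and 711 in Gata4LKO (0.92 ± 0.31, limma adjusted p = 0.526). H2-Aa, a class II chain, was at 265, 353, 190 and 222 and at 700, 755, 420 and 384 (1.10 ± 0.39, limma adjusted p = 0.573). For both genes Gata4LKO replicates 5 and 6 were the highest and replicates 7 and 8 nearer to control. Ptprc, the pan-leukocyte antigen CD45, was at 133, 122, 85.2 and 90.3 and at 188, 117, 210 and 195, and its groups overlapped. The summed level was 1175 to 1813 in control and 2042 to 3732 in Gata4LKO. Cd74 and the class II genes dominate this sum, so it describes mainly those genes and not the lymphocyte markers. Cd2 was at 2.53 to 11.6 normalized counts over the vehicle libraries, near the floor.

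Markers of recruited myeloid cells showed a smaller difference, with 6 of 10 tested positive, a median of 0.12 and summed levels that overlapped (455 to 808 in control and 515 to 803 in Gata4LKO). Spp1, which is also on the cholangiocyte list, dominates this sum at 287 to 635 over the vehicle libraries. The neutrophil marker Ly6g was at 0 in all 8 vehicle libraries. The liver sinusoidal endothelium list, which includes Gata4, had 16 of 17 positive with a median of 0.10 and 0 without overlap (6.58% of all genes in either direction). Stellate cells and fibroblasts had 10 of 17 positive (median 0.07). The intermediate filament gene Des was lower without overlap, a share of 5.88%, where all genes had 3.58%. Hepatocyte markers had 2 of 12 positive and a median of -0.14. Alb, which encodes albumin and dominates the summed hepatocyte level, and Apoa1 were lower without overlap but did not pass (limma adjusted p = 0.935 and 0.496). They are 16.7% of a short list, where 3.58% of all genes were lower without overlap. The hepatocyte sum was 1716000 to 1928000 in control and 1365000 to 1628000 in Gata4LKO libraries. Markers of cholangiocytes and of blood, with 7 tested in each list, showed 0 genes without overlap, against 6.58% of all genes in either direction. The part that any change in the makeup of the tissue has in the single genes named here was not tested.

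**Figure D3:**
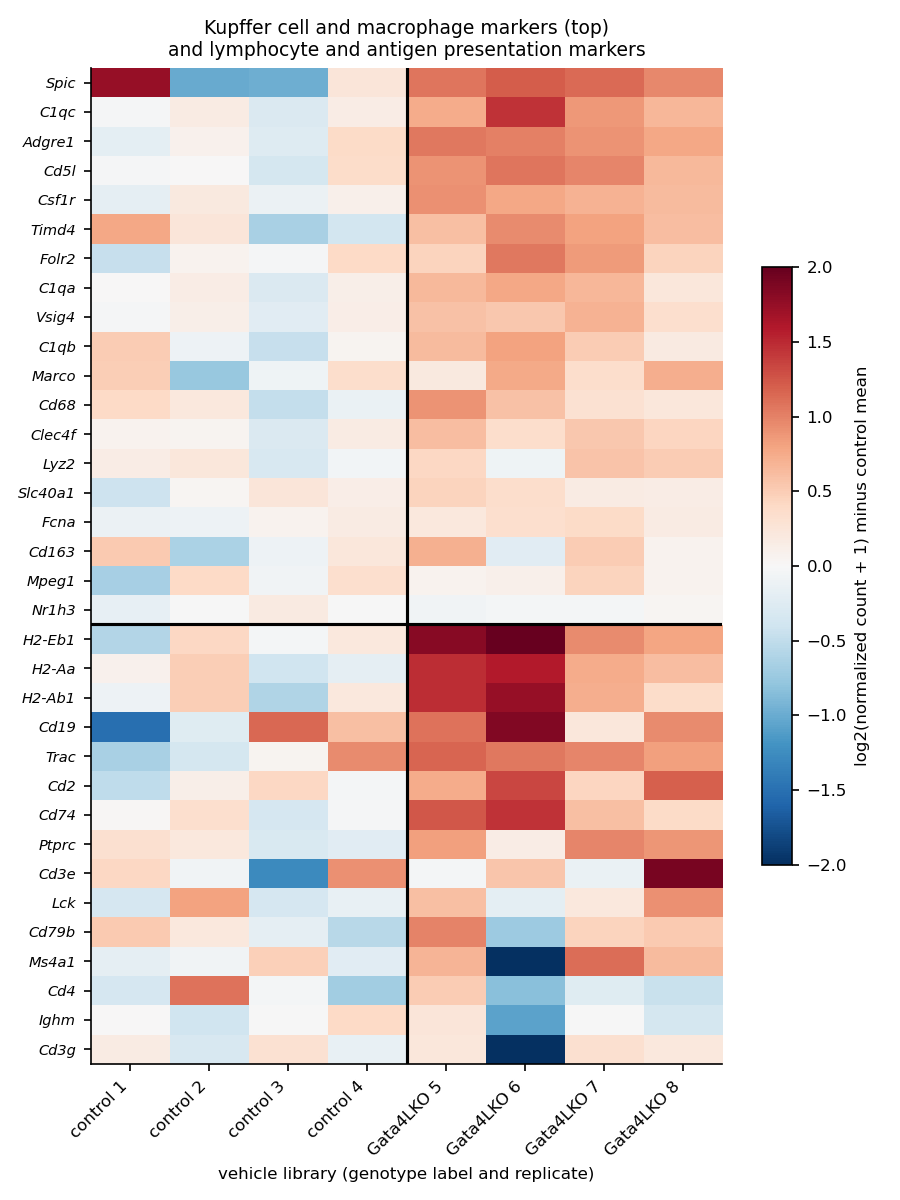
Markers of Kupffer cells and macrophages (above the line) and of lymphocytes and antigen presentation (below it) in the 8 vehicle libraries, coloured by log2(normalized count + 1) minus the control mean, red above and blue below, within 2 and -2. Most macrophage rows are red in all 4 Gata4LKO libraries, while the class II genes H2-Eb1, H2-Aa, H2-Ab1 and Cd74 are reddest in replicates 5 and 6.

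The interferon response is a set of genes induced by interferons in many cell types. Of 44 tested members, 34 had positive differences (median 0.28), 4 were higher without overlap (9.09%, against 3.00% of all genes), Gbp4, Gbp3 and Ifit2 among them, and 0 passed. Gbp4, a guanylate-binding protein, was at 64.4, 42.3, 29.3 and 40.8 in control and at 80.8, 67.3, 86.2 and 78.9 in Gata4LKO (0.86 ± 0.34, limma adjusted p = 0.698). The lowest Gata4LKO value of Gbp4 was close to its highest control value. With GW3965 the list's median was -0.13 and 0 members were higher without overlap (0.822% of all genes were). Acute phase genes, among them genes of proteins that hepatocytes secrete in inflammation, pointed the other way with vehicle, with 4 of 28 positive and a median of -0.25. In 5 of the 28 (Mt1, Il6ra, Saa1, Crp and Cp) Gata4LKO was lower without overlap (17.9%, against 3.58% of all genes). Il6ra, the interleukin-6 receptor chain, was at 4171, 3824, 4058 and 4906 in control and at 2830, 3107, 3049 and 3594 in Gata4LKO (-0.43 ± 0.17, limma adjusted p = 0.714), and with GW3965 the list's median was 0.20.

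Genes of lipid synthesis had mostly negative differences, and 0 were called. In cholesterol synthesis and uptake 1 of 27 tested genes had a positive difference, the median was -0.33, and 3 were lower without overlap (11.1%, against 3.58% of all genes), among them the pathway enzymes Pmvk (-0.62 ± 0.18, limma adjusted p = 0.407) and Ebp (-0.31 ± 0.09, limma adjusted p = 0.407). Pmvk, which phosphorylates mevalonate, was at 334, 339, 571 and 468 in control and at 250, 243, 326 and 270 in Gata4LKO libraries. Ebp, a sterol isomerase, was at 2749, 2733, 2964 and 2823 and at 2016, 2235, 2390 and 2439. The highest Gata4LKO value of Pmvk was close to its lowest control value, and for Ebp the control values spanned the narrower range. With GW3965 the list again had 1 positive member of 27 (median -0.46), and 6 were lower without overlap, where 1.14% of all genes were. Pmvk and Ebp were lower without overlap in both treatments. The vehicle and GW3965 comparisons use separate libraries.

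Of 20 genes of fatty acid synthesis and desaturation, 5 had positive differences (median -0.33) with vehicle and 1 with GW3965 (median -0.56). Fads1 and Fads2 were the members lower without overlap with vehicle (10%, against 3.58% of all genes), and both overlapped between genotypes with GW3965. Fads2, the desaturase that acts before Fads1, was at 7647, 5415, 4831 and 4225 in control and at 3297, 3764, 3559 and 3634 in Gata4LKO (-0.60 ± 0.21, limma adjusted p = 0.573). Genes of triglyceride synthesis and lipid droplets had 11 of 24 positive and a median near 0. Lpin1, a phosphatidate phosphatase of triglyceride synthesis and a coactivator of fasting genes, was at 11950, 11550, 18330 and 14960 in control and at 3883, 7019, 4594 and 7729 in Gata4LKO (-1.32 ± 0.39, limma adjusted p = 0.412). Its vehicle groups were far apart, but with GW3965 its control replicates 9, 10, 12 and 13 ranged from 1423 to 8134 and the difference was 1.14.

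Lipoprotein genes had 8 of 27 positive and a median of -0.13. Besides Mttp, the apolipoproteins Apoa1, Apoa5 and Apoa2 and the secretion factor Sar1b were among 6 lower without overlap (3.58% of all genes were), and the sorting receptor Sort1 was higher (3.00%). Apoa1, the main protein of high-density lipoprotein, was at 117900, 139200, 111300 and 109100 in control and at 76650, 96380, 70420 and 79110 in Gata4LKO (-0.57 ± 0.18, limma adjusted p = 0.496). Sort1 was at 284, 351, 249 and 245 and at 442, 489, 520 and 386 (0.71 ± 0.20, limma adjusted p = 0.390). For Apoa1 and Sort1 alike the genotypes stood apart with vehicle and overlapped with GW3965.

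Fatty acid oxidation and PPARA targets had 29 of 36 positive and a median of 0.17, with 2 (Hadhb and Bdh1) higher without overlap, a share of 5.56% where all genes had 3.00%. The largest difference among the named members was that of Vnn1, a pantetheinase induced by PPARA, at 598, 179, 375 and 813 in control and at 1209, 1297, 1170 and 773 in Gata4LKO (1.36 ± 0.32, limma adjusted p = 0.221). Its groups overlapped by 1 library each. With GW3965 12 of 36 were positive and the median was -0.06.

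Glucose and glycogen genes had 7 of 27 positive and a median of -0.25, with 5 lower without overlap (18.5%, against 3.58% of all genes), among them the gluconeogenic enzyme Pck1. Pfkfb1, which sets the level of a glycolytic activator, was at 918, 1252, 1258 and 1021 in control and at 707, 790, 690 and 866 in Gata4LKO (-0.54 ± 0.15, limma adjusted p = 0.389). Ppp1r3b, a glycogen-targeting subunit of protein phosphatase, was at 4965, 4823, 6454 and 6257 and at 3494, 3367, 1593 and 3807 (-0.94 ± 0.30, limma adjusted p = 0.494). Igfbp1, a secreted binding protein raised by fasting, was at 2672, 2642, 1248 and 1608 and at 900, 1213, 681 and 1204 (-0.995 ± 0.396, limma adjusted p = 0.691). For Igfbp1 the closest values of the 2 groups nearly met. With GW3965 the list's median was -0.01 and 0 members were lower without overlap (1.14% of all genes were).

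In bile acid synthesis and transport 7 of 26 were positive (median -0.03). Without overlap, Klb and Abcc4 were higher and Baat was lower (11.5% in either direction, against 6.58% of all genes). Baat, which conjugates bile acids to amino acids, was at 4326, 5120, 4856 and 4580 in control and at 3850, 4096, 3361 and 3245 in Gata4LKO (-0.38 ± 0.12, limma adjusted p = 0.502). It was lower without overlap with GW3965 too (-0.62). Klb, the co-receptor for fibroblast growth factors that restrain bile acid synthesis, was at 505, 609, 573 and 645 and at 807, 817, 857 and 721 (0.46 ± 0.17, limma adjusted p = 0.627).

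Pericentral hepatocyte genes had 13 of 24 positive (median 0.08) and periportal ones 8 of 24 (median -0.09). Within the pericentral list Rnf43 was higher and Lect2, Cyp1a2 and Gulo lower without overlap, and within the periportal list Gldc, Otc and Pck1 were lower. These were 16.7% and 12.5% of the 2 lists, against 6.58% of all genes in either direction. Otc, a urea cycle enzyme, was at 11300, 9413, 9026 and 8692 in control and at 6690, 7706, 6980 and 6620 in Gata4LKO (-0.45 ± 0.19, limma adjusted p = 0.750). Male-biased and female-biased liver genes had 12 of 25 and 9 of 18 positive. Of the carboxylesterases, a family of lipid and drug hydrolases, 4 of 13 were positive. Without overlap, Ces1f was higher and Ces2g and Ces1g were lower (23.1% in either direction, against 6.58% of all genes). Ces1f was at 11228, 9845, 10877 and 11314 in control and at 14769, 12414, 13121 and 11514 in Gata4LKO (0.26 ± 0.10, limma adjusted p = 0.688). Ces2g was at 694, 818, 795 and 866 in control and at 381, 562, 417 and 381 in Gata4LKO (-0.88 ± 0.22, limma adjusted p = 0.304). Drug metabolism genes were evenly divided (20 of 39 positive). Liver-enriched transcription factors had 12 of 25 positive, and Foxa2 was the member whose groups did not overlap (lower, limma adjusted p = 0.852). That is a share of 4%, where all genes had 6.58%.

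Complement and coagulation genes had 9 of 40 positive (median -0.11) and 5 lower without overlap (12.5%, against 3.58% of all genes). Among these was Mbl2, a lectin of complement activation, at 6054, 4865, 4207 and 4029 in control and at 3228, 2941, 3724 and 3372 in Gata4LKO (-0.52 ± 0.15, limma adjusted p = 0.390). Nuclear-encoded respiratory chain genes had 14 of 38 positive and 6 lower without overlap (15.8%, against the same 3.58%), with a median of -0.05. The 9 mitochondrially encoded transcripts tested were all negative (median -0.52, 0 without overlap), and their median was -0.07 without control replicate 1, whose mitochondrial share was high, and Gata4LKO replicate 6. Unfolded protein, p53, cell cycle, iron, growth hormone and lysosome lists had medians between -0.10 and 0.09. In the circadian list Arntl, a core clock activator, was at 119, 124, 63.4 and 46.6 in control and at 34.03, 11.6, 14.8 and 49.9 in Gata4LKO, and the groups overlapped by 1 library each (-1.75 ± 0.49, limma adjusted p = 0.377).

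Scaling by reads outside mitochondrial genes moved the median of all genes by 0.113, to 0.105, with 67.7% of genes positive. Of the 41 lists, 14 with medians between -0.11 and -0.004 became positive under it, among them complement and coagulation, the periportal, bile acid, carboxylesterase, respiratory chain and unfolded protein lists. The Kupffer (0.64), lymphocyte (0.82), interferon (0.39), cholesterol (-0.21), fatty acid synthesis (-0.22), glucose (-0.13) and acute phase (-0.13) medians kept their sign. Under this scaling 4 genes were called, 2 higher (Serpina7 and Pik3ap1) and 2 lower, against 0 higher and 2 lower as deposited.

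**Figure D4:**
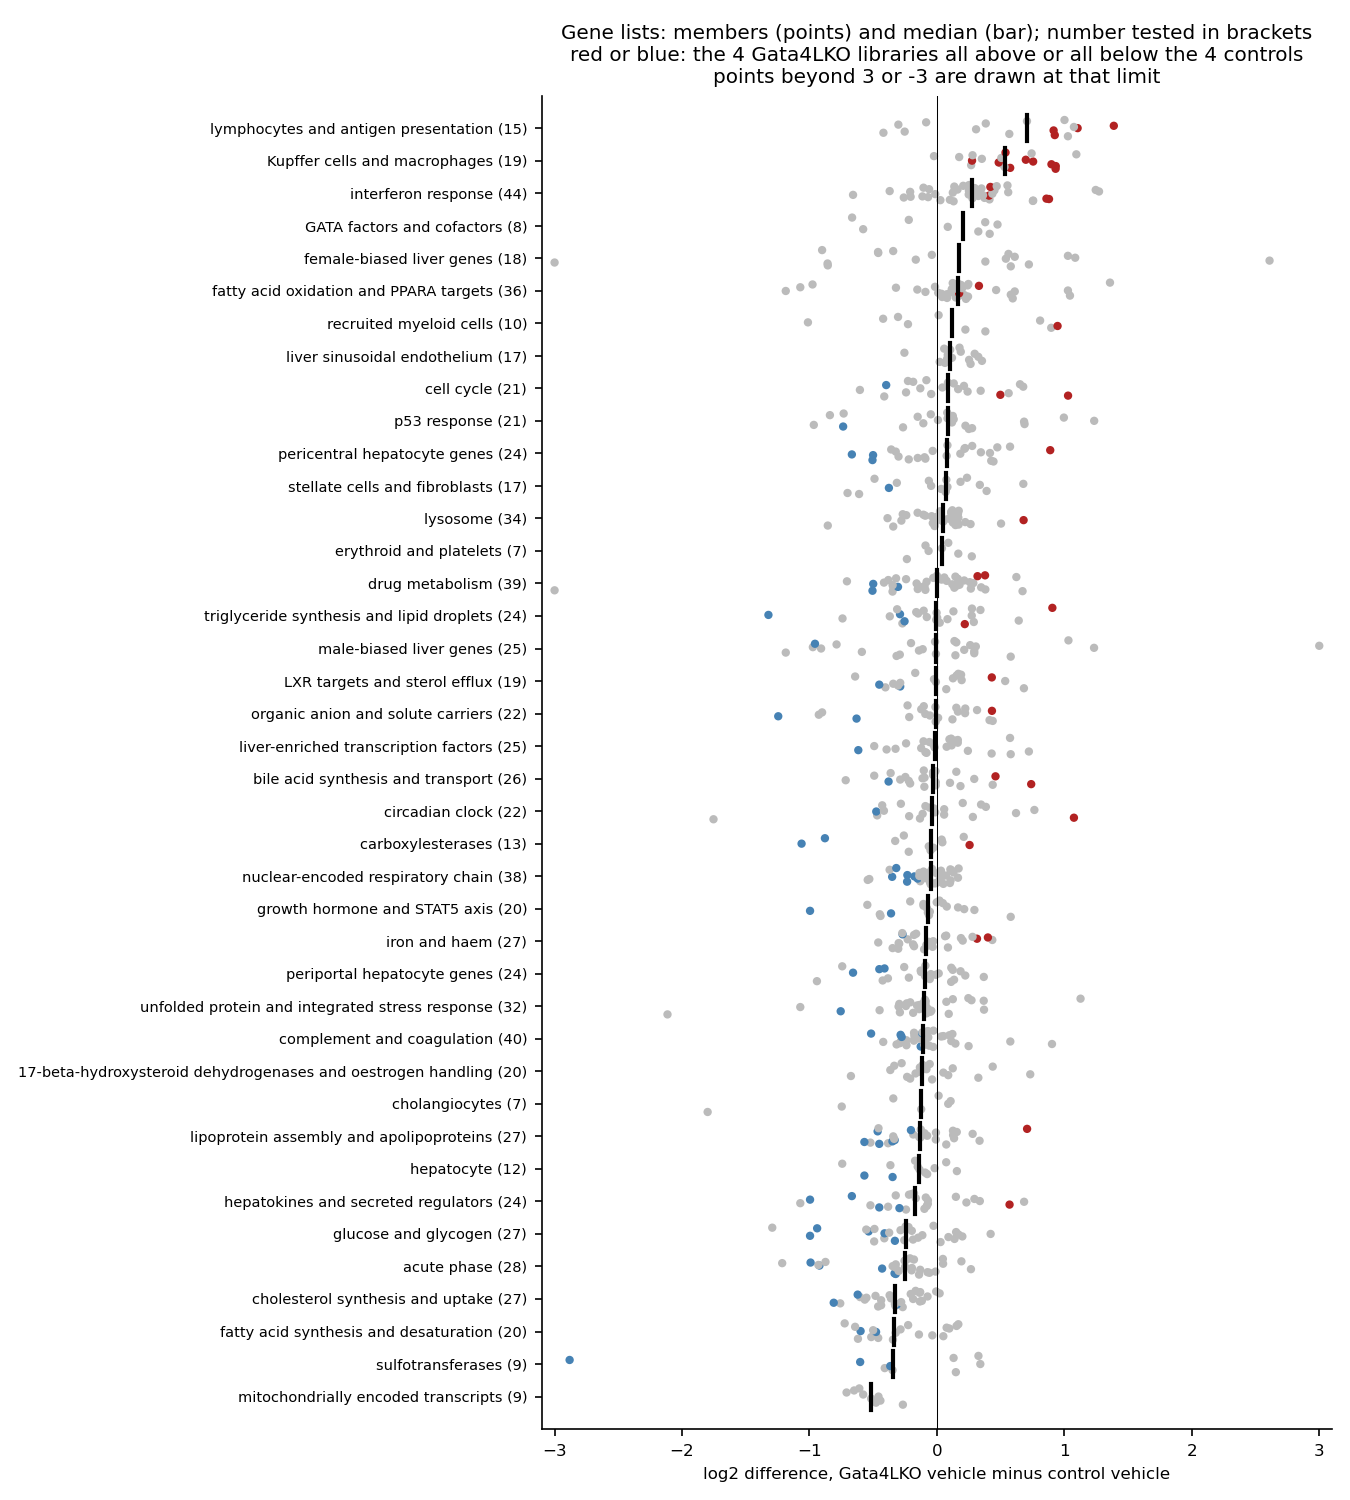
Log2 differences (Gata4LKO vehicle minus control vehicle) of the tested members of each list as points, with the list's median as a black bar, sorted by median; red and blue points are genes whose 4 Gata4LKO libraries lie all above or all below the 4 controls. Lymphocyte, Kupffer and interferon lists stand at the top (0.71, 0.53 and 0.28) and the mitochondrial, sulfotransferase, fatty acid and cholesterol synthesis lists at the bottom (-0.52 to -0.33).

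The genes named for the vehicle comparison were read in the GW3965 libraries, which share no library with it. Both comparisons take each gene's spread from the same fit over all 17 libraries. A small p with GW3965 is thus not independent of the choice by p with vehicle. Of the 17 lower genes, 9 had negative differences with GW3965 and 4 were lower without overlap (Slc17a4, Fabp2, Gpr155 and Mttp), where 1.14% of all genes were. Slc17a4, Fabp2 and Gpr155 also passed the test there, among 8 genes called in all (0.0598%). Fabp2 with GW3965 was at 678, 1912, 1065 and 753 in control and at 294, 309, 272, 254 and 239 in Gata4LKO (-1.89 ± 0.29, limma adjusted p = 0.0205). Gpr155 was at 953, 754, 951 and 1128 and at 607, 486, 420, 516 and 588 (-0.85 ± 0.15, limma adjusted p = 0.0370). Mttp was at 7624, 8873, 7930 and 9189 and at 6021, 6386, 7237, 6742 and 5961 (-0.38 ± 0.10, limma adjusted p = 0.188). These 4 genes were picked here for having no overlap, so every control library was above every Gata4LKO library by that choice. That includes the control libraries that hold Gm5345 (replicates 12 and 13, the last control values), and it is no separate check.

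Of the 15 higher genes, 6 had positive differences with GW3965, 0 were higher without overlap (0.822% of all genes were), and the median was -0.03. Art2a was lower without overlap there, at 85.8, 28.0, 69.1 and 37.2 in control and at 15.7, 18.8, 21.9, 15.4 and 8.93 in Gata4LKO (-1.62, limma adjusted p = 0.412). Its interaction did not pass (limma adjusted p = 0.0817). Vldlr (0.76) and Serpina7 (1.09) kept positive differences without passing, and Pik3ap1 had 0.08.

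**Figure D5:**
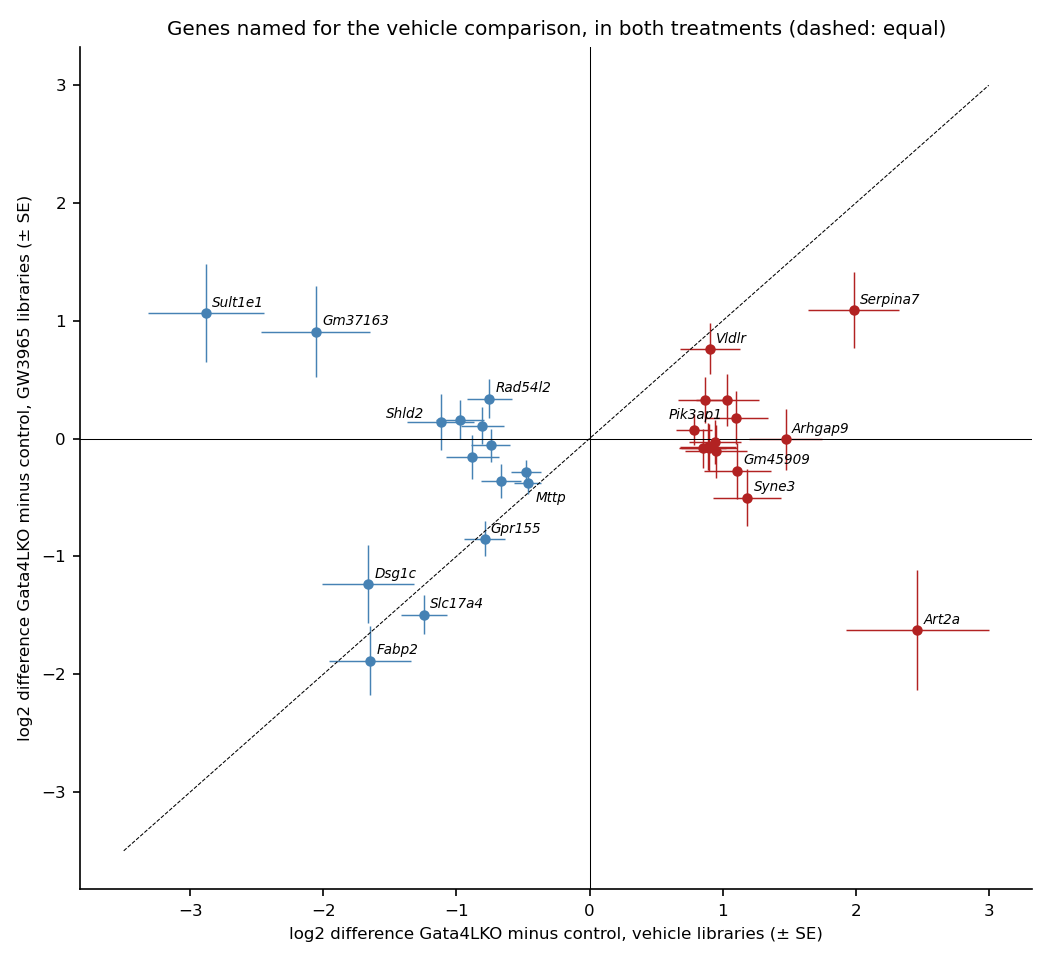
Log2 differences between genotypes (± SE) with vehicle on the horizontal and with GW3965 on the vertical axis for the genes named as called or as the 15 higher and 15 lower, leaving out Gm5345 and Gm16348; the dashed line marks equal values. Slc17a4, Fabp2, Gpr155 and Mttp lie along the line, the higher genes (red) lie between -0.50 and 0.33 on the vertical axis apart from Serpina7, Vldlr and Art2a, and Sult1e1 lies on the opposite side.

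The authors' deposited table for this comparison had 51 genes past an adjusted p of 0.05 (0.434% of the 11745 with an adjusted p), 19 higher and 32 lower. DESeq2 on reads recovered from the normalized counts called 50 genes (0.374%). Both genes called here were among the 51, and so were 29 of the 30 described as not passing. In 47 of the 51 the groups did not overlap, against 6.58% of all genes. The 51 were themselves selected by a test on these libraries, so this count lends them no support. Of the 19 higher genes of the authors' deposited table, 9 were positive with GW3965 and 0 higher without overlap (0.822% of all genes were). Of the 32 lower ones, 21 were negative and 7 lower without overlap, where 1.14% of all genes were. Among those outside the 30, Bhmt2, which remethylates homocysteine, was at 4036, 4551, 4609 and 4266 in control and at 3416, 2873, 2948 and 3412 in Gata4LKO. Bhmt2 separated the groups, whereas Egr1, an immediate early transcription factor, was at 317, 371, 40.7 and 199 and at 33.4, 52.6, 41.0 and 40.3, with control replicate 3 inside the Gata4LKO range. Ppp1r3c, a glycogen-targeting phosphatase subunit, was at 1047, 510, 1593 and 1014 and at 396, 278, 371 and 584, and Myom3, a sarcomere protein, at 94.7, 93.5, 207 and 30.1 and at 18.02, 11.6, 18.9 and 49.9. Both of these overlapped.

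A fit of the 8 vehicle libraries alone called 21 genes (0.157%), 7 higher and 14 lower, with both called genes among them, and 16 of the 21 were past the threshold in the authors' deposited table. Zbtb16, a zinc-finger transcription factor, was one of them, at 1296, 1318, 1673 and 1525 in control and at 224, 442, 286 and 518 in Gata4LKO. In the fit over all libraries its difference was -2.05 ± 0.50 (limma adjusted p = 0.238). With GW3965 Zbtb16 was at 208, 200, 796 and 1444 in control, the first 2 values (replicates 9 and 10) being from the libraries without Gm5345, and at 488 to 1463 in Gata4LKO. Ces1g, a carboxylesterase, was also called, at 1218, 1463, 1617 and 1902 and at 816, 680, 705 and 737, and its groups did not overlap. Zbtb16 and Ces1g were singled out after their values were seen.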

How the data were processed

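RNA-seq libraries of mouse liver were grouped by sample title. Alignment used STAR 2.6.0c with mm10, and FastQC and DESeq2 were named, per the submitters' processing notes; the sources used here name no counter, annotation or strand setting. The deposited signal is a normalized count per gene, reads divided by 1 size factor per library, as its whole-number steps show (100% of values within 0.05 read of a whole number). The authors' deposited comparison table holds log2 fold changes with their p-values, raw and adjusted, per the file headers. Of 24676 genes, 24656 identifiers matched GENCODE M21 (GRCm38), which gave positions; promoters came from RefSeq.

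Genotypes were compared by limma-trend (version 3.58.1, R 4.3.3) on log2(normalized count + 1), 1 coefficient per group, all 17 libraries, with Benjamini-Hochberg adjustment; 13379 genes with at least 10 normalized counts in at least 4 libraries were kept. The test was chosen for normalized values. edgeR 4.0.16 and DESeq2 1.42.0 ran on the recovered reads as alternatives, beside other scalings, pseudocounts, filters and left-out libraries. The fit was tested on simulated data. Replicates differed by more than sampling noise in every pair.

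Named genes were Gata4 and Gata6, called genes, the 15 with the smallest p and no overlap in each direction, up to 4 per list, and the 5 with the smallest adjusted p in the authors' deposited table outside these. List members whose groups overlapped were kept only at an unadjusted p under 0.01, a limit set after values were seen. The members and the 41 lists were chosen with earlier results of these data known. Ages differ between the series text (9 weeks) and the labels (11 weeks).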

Additional observations from a re-analysis of the deposited data

Results flagged for a closer look

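In 6 of 212 groups of 4 vehicle libraries checked, for the genes named here, 1 library lay far from the other 3; chance flags about 1 group in 20. Gata4LKO replicate 6 had 577.6 normalized counts of Hadhb, a fatty acid oxidation enzyme (439.1 to 459.1 in the other 3), and 209.4 of the interferon-induced Gbp3 (88.76 to 99.32). Gata4LKO replicate 8 had 7812 of Sult1d1 (5286 to 5479), and replicate 5 had 0.6674 of Gm16348, where the other 3 had 0. That Gm16348 value is 1 read in replicate 5. Control replicate 1 had 1756 of the respiratory chain gene Ndufb10 (1473 to 1487), and control replicate 3 had 139.1 of the replication factor Mcm7 (106.8 to 110.2).

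The difference between the genotypes depended on treatment for Sult1e1, by 3.949 on the log2 scale (-2.882 with vehicle and 1.066 with GW3965, limma interaction adjusted p = 0.0374). It did so for Gm5345 by 7.541 (-4.853 and 2.688, limma interaction adjusted p = 0.0374), a value that depends on the pseudocount because all Gata4LKO vehicle libraries were near 0.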

How the results depend on the processing

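For genotype with vehicle, where limma called 2 genes, DESeq2 called 50, the fit of the 8 vehicle libraries 21, the fit that left out all 5 libraries of high mitochondrial share 14, scaling by reads outside mitochondrial genes 4, and the fit without control replicate 1 and Gata4LKO replicate 6 (chosen after seeing the data) 1. Leaving out single libraries gave 0 to 3, with 0 without control replicate 1 or 3 or Gata4LKO replicate 7. For the interaction, with 2 genes, DESeq2 called 26, the fit without the 5 libraries 1, and edgeR, the minimum of 50 normalized counts and the fit without replicates 1 and 6 called 0; leaving out single libraries gave 0 to 1. TMM scaling, both other pseudocounts and no filter left both counts at 2. The cause of these differences was not tested. Gata4 passed under none of these settings. None of the 106 named genes changed sign under a setting run. Of those not called, 46 passed under at least 1 setting (41 of them by DESeq2). No paired analysis was possible because the replicate numbers in the labels never recur across groups. The reads per library limit genes with low counts, such as Art2a.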
